A study of Mus musculus with 53 samples.

Results

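Expression of 10 epithelial defence genes known to respond to microbes was followed in the mouse intestine: the C-type lectins Reg3a, Reg3b and Reg3g, the goblet cell protein Retnlb, the serum amyloid A genes Saa1, Saa2 and Saa3, the oxidase Duox2 with its maturation factor Duoxa2, and the nitric oxide synthase Nos2. The genes were chosen by name, and all 10 had a row among the 55421 genes of the count table. RNA-seq of whole tissue had been made from 53 libraries in 11 groups, to compare VilCreER-driven gene changes with WT tissue in the presence or absence of drugs. VilCreER is a Cre recombinase that tamoxifen switches on in the intestinal epithelium, so the alleles below were changed in epithelial cells and not in stroma or immune cells. Every mouse carried VilCreER, the WT mice included, and the study used adults of both sexes. BA mice were BrafV600E/+ Alk5fl/fl, which activates the mutant kinase BRAF and deletes the TGFβ receptor ALK5 (Tgfbr1), and A mice were Alk5fl/fl. In the proximal colon, day-30 tissue after induction came from WT (n = 4), BA (n = 5), BA given antibiotics (n = 5), A (n = 4) and A given sulindac mice (n = 4), and BA tumours (n = 4) were set against WT proximal colon (WT PC, n = 3). In the small intestine (SI), Apcfl/+ tumours (n = 5) were set against WT SI (n = 3), and Apcfl/fl tissue at day 4 (n = 10) against WT at day 4 (n = 6). The antibiotics were ampicillin (1 g/L), neomycin trisulphate (1 g/L), vancomycin (500 mg/L) and metronidazole (1 g/L) in drinking water from the day after tamoxifen. Sulindac, a non-steroidal anti-inflammatory drug, was given at 0.4 g/L for 14 days. The labels give a mixed C57BL/6J background for all groups except the Apcfl/+ tumours and WT SI, which were inbred C57BL6/J. Neither an age nor a litter, cage or sequencing batch is given for a single mouse, so p-values measure the spread between these mice, which may share a cage.

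REG3 lectins are secreted onto the mucosal surface, where REG3B and REG3G bind and kill bacteria and keep them away from the epithelium, and their induction by IL-22 and by Toll-like receptor signalling through MYD88 is well described. RELMβ, the product of Retnlb, is a goblet cell protein that appears on colonisation and during type 2 immunity. Serum amyloid A proteins are made by epithelium in contact with adherent bacteria and by the inflamed liver, and DUOX2 releases hydrogen peroxide at the apical surface once DUOXA2 has carried it through the endoplasmic reticulum. NOS2 makes nitric oxide from arginine in epithelium and macrophages.

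The genes lie in 5 places of the genome. Reg3b (chromosome 6: 78370657 to 78373466), Reg3a (78380709 to 78383827) and Reg3g (78466269 to 78468872) are neighbours on chromosome 6. Saa3 (46711998 to 46715700), Saa1 (46740497 to 46742980) and Saa2 (46751790 to 46754313) are neighbours on chromosome 7, where Saa1 and Saa2 start 8810 bases apart and run in opposite directions. Duox2 (122279247 to 122298449) and Duoxa2 (122298900 to 122302885) stand head to head on chromosome 2, with 451 bases between their starts. Nos2 (78920787 to 78960254) lies on chromosome 11 and Retnlb (48816856 to 48818892) on chromosome 16. All are protein-coding, and these spans are those of GENCODE on GRCm38.

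The sequence upstream of a start is shown for genes that sit together and moved in these data, so that shared and unshared letters can be compared. RefSeq (GRCm38.p6) gave a promoter for 8 of the 10 genes, all but Retnlb and Nos2, and the 250 bases before each start were searched on both strands for TTCNNNGAA (STAT), GGGA and CC with any 4 bases between (NF-kB), TGANTCA (AP-1) and TTGCNNAA (CEBP). Capitals mark a match, bases inside the annotated gene are left out, and each sequence is written on the strand of its gene.
Saa1, chr7:46742981-46743230, minus strand: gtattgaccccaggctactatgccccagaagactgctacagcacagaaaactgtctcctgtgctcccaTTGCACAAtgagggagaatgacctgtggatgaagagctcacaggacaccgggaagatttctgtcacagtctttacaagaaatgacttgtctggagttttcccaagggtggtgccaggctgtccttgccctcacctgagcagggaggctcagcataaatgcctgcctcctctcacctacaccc
Saa2, chr7:46751583-46751789, plus strand: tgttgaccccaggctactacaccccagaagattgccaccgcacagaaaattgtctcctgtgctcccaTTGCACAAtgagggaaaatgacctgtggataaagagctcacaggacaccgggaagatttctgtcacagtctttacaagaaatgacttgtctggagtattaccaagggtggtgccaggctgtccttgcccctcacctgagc
Saa3, chr7:46715701-46715926, minus strand: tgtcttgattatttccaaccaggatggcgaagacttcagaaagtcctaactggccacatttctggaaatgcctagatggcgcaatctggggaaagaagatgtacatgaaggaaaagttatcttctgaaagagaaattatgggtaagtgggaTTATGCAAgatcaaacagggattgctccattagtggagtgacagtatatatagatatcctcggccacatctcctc
Reg3g, chr6:78468875-78469124, minus strand: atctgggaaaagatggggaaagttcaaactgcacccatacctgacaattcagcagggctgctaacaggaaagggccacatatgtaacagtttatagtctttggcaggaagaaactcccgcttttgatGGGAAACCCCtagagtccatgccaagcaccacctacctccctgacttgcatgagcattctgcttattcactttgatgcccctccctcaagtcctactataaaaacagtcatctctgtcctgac
Reg3a, chr6:78380459-78380708, plus strand: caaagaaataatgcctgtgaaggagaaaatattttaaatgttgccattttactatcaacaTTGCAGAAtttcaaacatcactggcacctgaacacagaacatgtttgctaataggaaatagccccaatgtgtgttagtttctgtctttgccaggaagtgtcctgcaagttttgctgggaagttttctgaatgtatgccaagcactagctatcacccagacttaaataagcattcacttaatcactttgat
Duoxa2, chr2:122298650-122298899, plus strand: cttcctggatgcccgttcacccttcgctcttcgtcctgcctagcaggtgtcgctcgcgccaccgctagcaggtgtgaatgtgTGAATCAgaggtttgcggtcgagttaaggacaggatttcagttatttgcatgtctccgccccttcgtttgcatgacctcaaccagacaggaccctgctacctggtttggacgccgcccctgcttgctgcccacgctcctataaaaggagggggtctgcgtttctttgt

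The Saa1 and Saa2 windows were identical at 195 of 207 aligned positions (94.2%), including the CEBP letters, and those of Reg3a and Reg3g at 139 of 206 (67.5%). The CEBP letters were found upstream of Saa1, Saa2, Saa3 and Reg3a, and in 9.56% of 32851 mouse promoter windows of the same length. The NF-kB letters were found only at Reg3g among the 8 genes and in 17.6% of all windows, the AP-1 letters only at Duoxa2, in the gap it shares with Duox2, and in 6.75%. The STAT letters were found only at Reg3b, in a stretch within the annotated gene that is not printed, and in 7.02%. These matches describe letters and no binding was measured.

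Between 516985 and 32824795 reads per library were counted on genes, and values below are CPM, counts scaled to a common library total, unless named otherwise. At a group's median total, 3 counts correspond to 0.138 to 0.192 CPM, a limit that covers counting error only. Reads were paired with 36 bases each, and 41.8% of the 36-base words in Saa1 exons also occur in other genes. Saa2 shared the most of them, so a fit with the counts of Saa1 and Saa2 summed was made as well. For Duoxa2, 41.6% of words also occur in other exons, mostly of the overlapping gene Duoxa1, and the library kit named in the methods does not mark strand, so their shared reads cannot be told apart. Epithelial markers were present in every library (summed level 7263 to 26028 CPM). Colonic markers summed to 12966 CPM or more in all normal colon libraries and to 865 to 5138 CPM in BA tumours. Several libraries stood apart. Apcfl/+ tumour 2 had a summed small intestinal marker level of 45.7 CPM against 6220 to 11210 in the other 4 and the highest colonic marker sum of its group (654 CPM), and BA antibiotics mouse 3 had 1840.5 CPM of adipocyte markers against 33.8 to 55.6. BA tumour 2 had the highest Paneth cell marker sum of its group (364 CPM), pancreatic markers reached 941, 496, 806 and 677 CPM in WT day-4 mice 1 and 4, WT SI mouse 1 and Apcfl/+ tumour 5, and Apcfl/fl mouse 1 had the lowest total. Results that rest on these libraries are given with and without them. Apcfl/fl mouse 8 also differed from its group, with a TMM scaling factor of 0.795 against 1.07 to 1.14 in the rest. It was not counted among the libraries that stand apart and was omitted only where each library was left out in turn. In whole tissue, fewer cells of a type and less RNA per cell cannot be told apart.

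The genes differed in where they were expressed. Per length (RPKM, which also divides by exon length), WT SI held mostly the REG3 lectins, with 2206 RPKM of Reg3b, 689 of Reg3g and 138 of Reg3a on average (n = 3), while the other 7 genes lay between 0.0835 (Saa2) and 11.6 RPKM (Duox2). The Reg3b and Reg3g means rested on WT SI mouse 2, at 5422 and 1565 RPKM, against 593 and 603 RPKM of Reg3b and 260.1 and 241 RPKM of Reg3g in the other 2 mice. In the WT colon at day 30 the order was different, with Retnlb first at 667 RPKM and Saa1 at 74.1, Duox2 at 40.2, Duoxa2 at 29.9, Saa3 at 15.9, Saa2 at 5.04, Nos2 at 1.14 and Reg3a at 0.493 RPKM (n = 4). The mean of Reg3b there (408 RPKM) came from 1 mouse, WT mouse 1, so Reg3b and Reg3g could not be placed in this order. The means of Nos2 and Reg3a rested on the same mouse. Nos2 was at 16.2 CPM in it and at 0.706 to 2.53 CPM in the others, and Reg3a was at 1.52 CPM in it, with a group median of 0.0538 CPM. The other WT colon group, WT PC (n = 3), had a different order, so the day-30 order does not stand for WT colon as such. Its means were 189 RPKM of Reg3b, 134 of Retnlb, 33.6 of Reg3g, 23.5 of Saa1 and 11.7 of Duox2. The rest were 5.62 of Duoxa2, 3.62 of Reg3a, 3.49 of Saa3, 0.552 of Nos2 and 0.0745 of Saa2. Retnlb ran from 6.42 to 251 CPM in WT PC. Regions were not compared by a test, because the WT groups differ in background and day. Within WT colon at day 30, neighbours in this order from Saa1 (74.1 ± 38.4 RPKM, SD) through Duox2 (40.2 ± 24.2) and Duoxa2 (29.9 ± 17.4) to Saa3 (15.9 ± 4.89) lay within each other's spread over mice, and so did Nos2 and Reg3a.

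**Figure D1:**
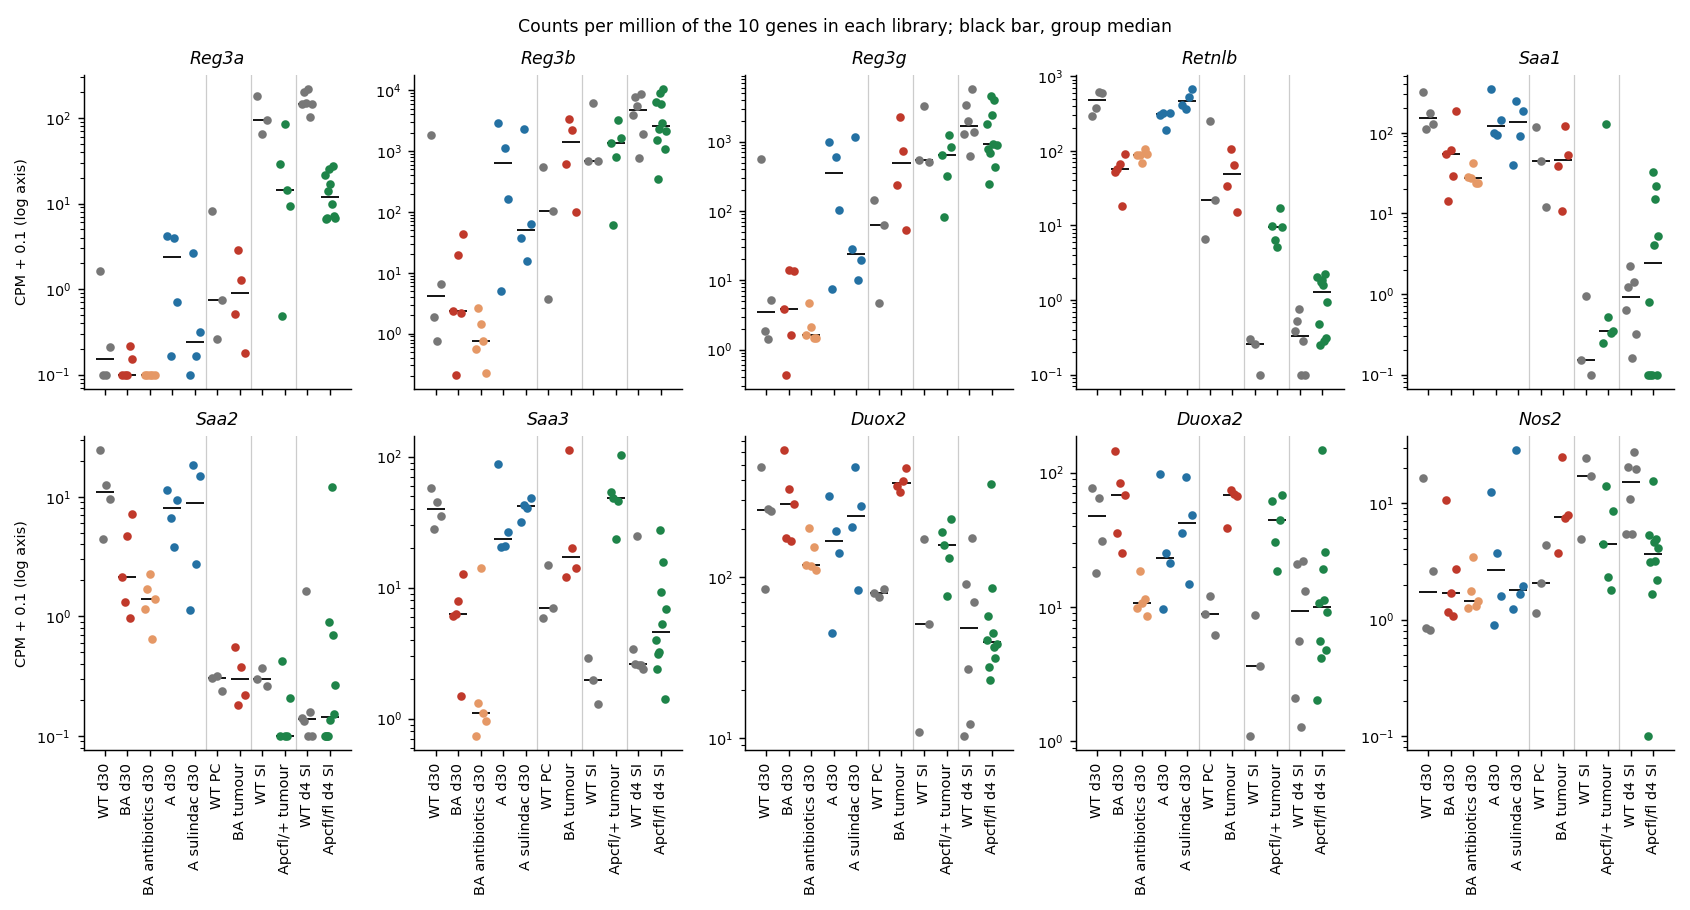
Level of each of the 10 genes in every library, as CPM plus 0.1 on a log axis, with groups along the horizontal axis and the group median as a black bar. Reg3a, Reg3b and Reg3g were high in the small intestine, Retnlb, Saa1 and Saa2 in the colon at day 30, and Reg3b and Reg3g in the colon at day 30 spread widely between mice, Reg3b from 0.112 to 2863 CPM.

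The test of microbial dependence set BA mice given antibiotics against untreated BA mice at day 30. Duoxa2 was 6.26-fold lower and Duox2 2.35-fold lower under antibiotics, and no gene of the 10 was called higher. Of 9 genes tested, these 2 were called at an adjusted p under 0.05, where 13.0% of all genes tested were called and 8.50% were lower. The median log2 fold change of the 9 was -1.30, against 0.03 over all genes tested.

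Duoxa2, the maturation factor, was at 145, 35.2, 83.1, 25.1 and 67.7 CPM in the 5 BA mice and at 9.79, 18.4, 10.6, 11.5 and 8.46 CPM in the 5 BA mice given antibiotics. Every treated mouse lay below every untreated one, which held for 5.85% of all genes tested, and the log2 fold change was -2.65 ± 0.45 (SE, adjusted p = 0.00382 by the edgeR quasi-likelihood test). Leaving out any 1 of the 10 libraries kept the call, with log2 fold changes of -2.89 to -2.21. Duox2, the oxidase itself, was at 614, 175, 354, 168 and 285 CPM in BA mice and at 118, 202, 118, 154 and 111 CPM under antibiotics. The groups overlapped through treated mouse 2, and the log2 fold change was -1.23 ± 0.34 (adjusted p = 0.0385). The Duox2 call held in 3 of the 10 fits with 1 library left out, and was among those lost without treated mouse 3, a library that stood apart. Of Duox2 and Duoxa2, 1 gene alone was called with limma voom or with all 5 day-30 groups in 1 fit. Neither of the neighbouring pair was called, with log2 values of -1.15 ± 0.35 for Duoxa1 (adjusted p = 0.0532) and -0.83 ± 0.28 for Duox1 (adjusted p = 0.0770).

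Reg3b was at 2.29, 0.112, 19.8, 2.08 and 44.0 CPM in BA mice and at 0.464, 2.57, 1.33, 0.664 and 0.123 CPM under antibiotics. The groups overlapped, since 3 of the 5 untreated mice were already at 2.29 CPM or below, and the log2 fold change of -3.77 ± 1.20 was not called (adjusted p = 0.0615). DESeq2 called it, and so did edgeR without BA mouse 2 (-4.07, adjusted p = 0.0325). Reg3g was not called (log2 -1.66 ± 0.80, adjusted p = 0.184), with at most 14.2 CPM in BA mice and 4.65 CPM under antibiotics. Reg3a had 0 reads in all 5 treated mice, which allows up to 0.174 CPM at the median total, and at most 0.115 CPM in the untreated ones, so no fold is given.

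Saa1 (-1.31 ± 0.55, adjusted p = 0.138) and Saa2 (-1.30 ± 0.57, adjusted p = 0.147) were not called. Saa3 was at 5.94, 6.22, 7.84, 1.38 and 12.7 CPM in BA mice and at 0.638, 1.22, 13.9, 0.996 and 0.859 CPM under antibiotics, so that treated mouse 3 alone lay above every untreated mouse. Over all 10 mice the log2 fold change was -1.02 ± 0.85 (adjusted p = 0.430), and without mouse 3 it was -2.91 (adjusted p = 0.00462). That library was also the one with 1840.5 CPM of adipocyte markers, 7578 CPM of fibroblast markers and 459 CPM of macrophage markers, and the part of these cells in its Saa3 level was not tested.

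Retnlb stood at 51.5, 56.4, 65.7, 18.3 and 89.9 CPM in BA mice and at 88.8, 87.5, 67.6, 105 and 91.0 CPM under antibiotics. Its log2 fold change of 0.59 ± 0.31 was not called (adjusted p = 0.222), and 2 standard errors around it ran from -0.04 to 1.21. Nos2 (-1.00 ± 0.65, adjusted p = 0.310) was not called either and rested on BA mouse 1, at 10.6 CPM against 0.980 to 2.63 in the other 4.

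**Figure D2:**
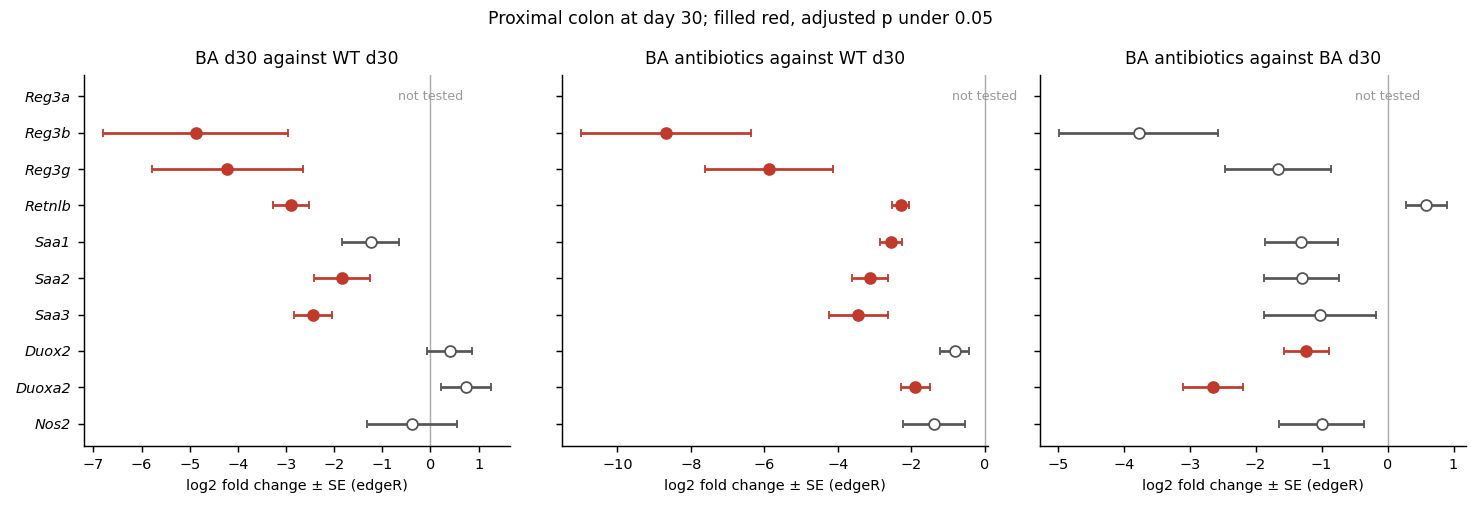
Log2 fold change of each gene with its standard error in 3 comparisons of day-30 proximal colon, with filled red points for an adjusted p under 0.05. Retnlb and Saa3 were lower in BA colon with or without antibiotics, while Duoxa2 was lower under antibiotics (-2.65 against BA, -1.89 against WT) and had a value of 0.74 in untreated BA colon. The Reg3b and Reg3g points against WT rest on 1 WT mouse.

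BA colon at day 30 was next compared with WT colon, before and under antibiotics. These 2 comparisons share the 4 WT mice. In untreated BA colon 5 of the 9 genes tested were called, all lower, where 55.1% of all genes tested were called, 29.3% lower. Under antibiotics 7 of 9 were called, all lower, against 39.6% of all genes, 17.8% lower. The median log2 fold change of the genes tested was -1.83 without and -2.55 with antibiotics, beside -0.03 and 0.01 over all genes tested. Scaling by library totals alone moved the median of all genes to -0.18 in untreated BA colon against WT and to -0.28 against A, and no called gene of the 10 changed direction in any comparison under that or another scaling.

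Retnlb was at 290, 371, 609 and 589 CPM in the 4 WT mice, and all 10 BA mice, treated or not, lay at or below 105 CPM. It was 7.43-fold lower in BA colon (log2 -2.89 ± 0.38, adjusted p = 7.94e-05) and 4.89-fold lower under antibiotics (log2 -2.29 ± 0.23, adjusted p = 3.43e-05). No overlap with all mice lower held for 32.0% of genes tested in the first comparison and 19.8% in the second. Of 7 other goblet cell markers tested in untreated BA colon, 1 was called higher and 0 lower. Their summed level ran from 7092 to 11851 CPM in BA and from 7795 to 13250 CPM in WT mice. The goblet and Paneth cell gene Ang4 is not among these 7 and was lower, with its value given below.

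Saa3 was at 57.4, 28.0, 45.0 and 35.0 CPM in WT mice, above every BA mouse, with log2 fold changes of -2.44 ± 0.40 (adjusted p = 0.000394) in BA colon and -3.44 ± 0.80 (adjusted p = 0.00672) under antibiotics, the latter -5.35 without treated mouse 3. Saa2, at 24.4, 4.36, 12.5 and 9.42 CPM in WT, was at 0.865 to 7.10 CPM in BA mice (log2 -1.83 ± 0.58, adjusted p = 0.0192, and -1.34, adjusted p = 0.0716, without WT mouse 1) and at 0.553 to 2.17 CPM under antibiotics (log2 -3.13 ± 0.49, adjusted p = 0.000675). The BA and WT mice overlapped for Saa2, and the treated mice all lay below WT. Saa1 was at 320, 110, 178 and 127 CPM in WT and at 54.9, 13.9, 60.5, 28.8 and 186 CPM in BA mice, which was not called (log2 -1.25 ± 0.59, adjusted p = 0.0945) unless BA mouse 5 was left out (-2.07, adjusted p = 0.00399). Under antibiotics it was at 23.6 to 42.3 CPM and 5.84-fold lower than in WT (log2 -2.55 ± 0.30, adjusted p = 0.000111). All 3 Saa calls under antibiotics held in the 9 fits with 1 library left out. Fibroblast markers, another source of Saa3, summed to 1342 to 1692 CPM in WT and 886 to 1151 CPM in BA mice, with 5 of 6 lower. Across the 22 day-30 libraries within groups, Saa3 followed macrophage (r = 0.77), adipocyte (r = 0.73) and fibroblast markers (r = 0.64). Treated mouse 3, the highest of its group in all of these markers, is among these libraries, and its weight in the correlations was not tested. Hepatocyte markers, from the main source of Saa1 and Saa2 in the body, summed to 6.95 to 33.5 CPM in WT and 23.9 to 64.8 CPM in BA mice, and the part of these cells was not tested.

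Duoxa2 was at 77.0, 17.7, 64.5 and 31.0 CPM in WT mice and was not called in untreated BA colon (log2 0.74 ± 0.51, adjusted p = 0.241), whereas under antibiotics it was 3.71-fold lower than in WT (log2 -1.89 ± 0.40, adjusted p = 0.00410). The treated group overlapped WT only through treated mouse 2 at 18.4 CPM. Duox2 was called in neither comparison, with log2 values of 0.40 ± 0.46 (adjusted p = 0.487) and -0.82 ± 0.39 (adjusted p = 0.119), the second called without WT mouse 2 (-1.12, adjusted p = 0.0102). Nos2 was called in neither (-0.39 ± 0.93 and -1.39 ± 0.84).

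Reg3b and Reg3g were called lower in both comparisons, with values that rested on WT mouse 1. In untreated BA colon the calls held in only 4 (Reg3b) and 3 (Reg3g) of 9 fits with 1 library left out, and under antibiotics in 8 of 9 each. Reg3b stood at 1855 CPM in WT mouse 1 and at 1.81, 0.659 and 6.35 CPM in the other 3 WT mice, which lay in the range of the BA mice. Its log2 fold change was -4.88 ± 1.92 (adjusted p = 0.0486) in BA colon and changed to 2.39 (adjusted p = 0.145) without WT mouse 1. For Reg3g, at 556 CPM in that mouse and 1.32 to 5.11 CPM in the other 3, the value of -4.22 ± 1.58 (adjusted p = 0.0395) changed to 1.44 (adjusted p = 0.217). Under antibiotics the values of -8.67 ± 2.31 for Reg3b and -5.87 ± 1.74 for Reg3g became -1.38 (adjusted p = 0.229) and -0.20 (adjusted p = 0.803) without the same mouse. DESeq2 called 3 genes, not 5, in untreated BA colon.

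Deletion of Alk5 alone left the 10 genes without a call. In A colon against WT, 0 of 10 genes were called with edgeR, DESeq2 or limma voom, 1 had an unadjusted p under 0.05, and 0.141% of all genes tested were called. That gene was Retnlb, at 301, 321, 191 and 319 CPM in A mice (log2 -0.76 ± 0.26, adjusted p = 0.480). Reg3b was at 2863, 4.99, 1125 and 160 CPM in the 4 A mice, a spread as wide as that of WT, and its log2 fold change of 1.20 ± 2.02 ran to 8.49 without WT mouse 1. For A colon under sulindac against WT, 0 of 9 genes were called with any of the 3 tools and 0 had an unadjusted p under 0.05, where 0.0507% of all genes were called. Both comparisons used the WT mice of the preceding paragraphs.

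Sulindac against no sulindac in A colon gave 0 calls among the 10 genes with edgeR, DESeq2 or limma voom, and 0% of all 17568 genes tested with edgeR were called (460 had an unadjusted p under 0.05, and DESeq2 called 7). Of the 10 genes, 1 had an unadjusted p under 0.05. It was again Retnlb, at 413, 359, 525 and 676 CPM under sulindac, above every untreated A mouse (log2 0.86 ± 0.25, adjusted p = 1.00). A lack of overlap with the treated mice higher held for 0.273% of genes tested. The values of Retnlb under sulindac lay within or slightly above the WT range of 290 to 609 CPM.

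Adding BRAF V600E to Alk5 deletion was read from BA against A colon, which shares the untreated BA mice with 2 comparisons above. Of 9 genes tested 4 were called, all lower in BA (45.3% of all genes tested were called, 23.6% lower), namely Reg3b, Reg3g, Retnlb and Saa3. Retnlb was 4.27-fold lower (log2 -2.09 ± 0.34, adjusted p = 0.000637) and Saa3 4.87-fold lower (log2 -2.28 ± 0.56, adjusted p = 0.00674), and for both the BA mice lay below every A mouse, as they did for 29.2% of all genes tested. Saa3 was at 87.7, 20.4, 20.6 and 26.4 CPM in A mice. The lectins were 65.6-fold (Reg3b, log2 -6.04 ± 1.57, adjusted p = 0.00925) and 55.5-fold lower (Reg3g, log2 -5.80 ± 1.23, adjusted p = 0.00299), with overlap through A mouse 2. The call of each of the 4 genes held in all 9 fits with 1 library left out, Reg3b then lying between -7.27 and -4.75. Duox2 (1.08 ± 0.52, adjusted p = 0.106) and Duoxa2 (1.10 ± 0.65, adjusted p = 0.188) were not called, except without A mouse 1 (1.56, adjusted p = 0.0320, and 2.17, adjusted p = 0.00926). Saa1 and Saa2 were not called either, except without BA mouse 5 (-1.91 and -1.63).

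Mice of the same group differed widely in Reg3b and Reg3g. Over the 22 day-30 colon libraries Reg3b ran from 0.112 to 2863 CPM, and the 4 libraries with the highest levels, 1125 CPM or more (WT mouse 1, A mice 1 and 3, and A sulindac mouse 2) also held the 4 highest Reg3g levels, from 556 to 1151 CPM. Among the deviations of the 22 libraries from their group means, on a log2 CPM scale, Reg3b and Reg3g had a Pearson r of 0.98 and Duox2 and Duoxa2 an r of 0.94. Nos2 followed Reg3g with r = 0.83 and Duox2 with r = 0.76. These values describe libraries that share tissue and depth. The highest Nos2 levels, 28.4, 16.2 and 12.4 CPM, were those of A sulindac mouse 2, WT mouse 1 and A mouse 1, and 3 of the 4 Reg3-high mice were also among the 5 highest for Duox2. BA mouse 1 was the exception, with the highest Duox2 of all 22 (614 CPM) and 10.6 CPM of Nos2 but 2.29 CPM of Reg3b. None of the 10 BA mice, treated or not, exceeded 44.0 CPM of Reg3b.

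**Figure D3:**
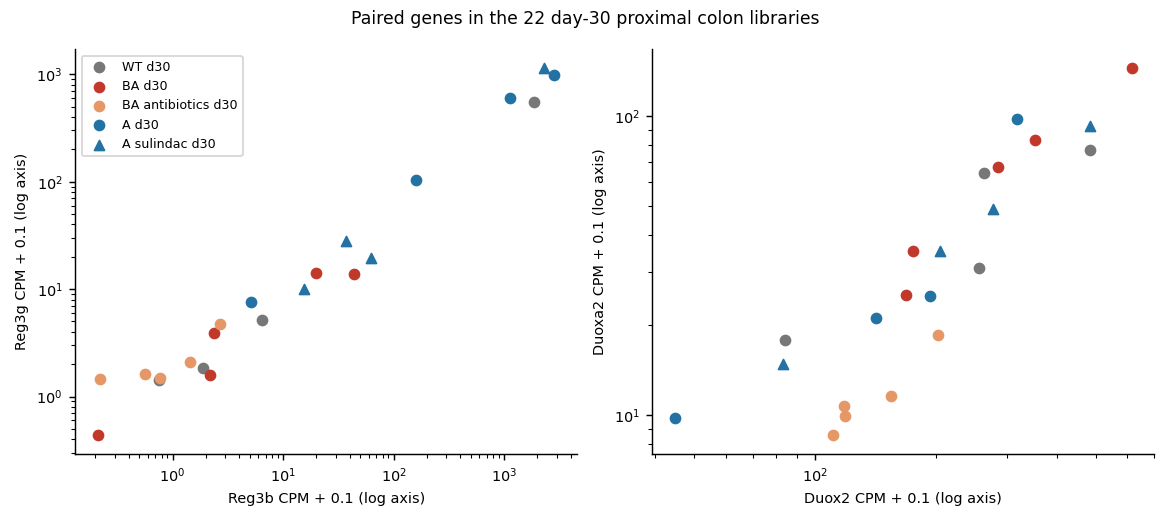
Reg3g against Reg3b and Duoxa2 against Duox2 in the 22 day-30 proximal colon libraries, as CPM plus 0.1 on log axes, with 1 point per mouse and triangles for sulindac. In both panels high values of 1 gene go with high values of the other across mice, and the 4 mice with 1125 CPM or more of Reg3b come from WT, A and A sulindac groups.

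What the Reg3-high mice had in common was looked for among the listed cytokines and cell markers. Il22, the main cytokine known to induce Reg3 genes, was at 2.21 CPM in A sulindac mouse 2 and at most 0.0612 CPM in any mouse of the other day-30 groups, and it was too low to be tested. Paneth cell markers summed to 65.2 and 44.9 CPM in A mice 1 and 3 and to 20.1 CPM in A sulindac mouse 2, against 0.905 to 17.5 CPM in the other 19 libraries, which include WT mouse 1 at 5.43 CPM. Neutrophil markers summed to 2.44 to 18.0 CPM in all WT and A libraries, the 4 included. The part of these cells in the lectin levels was not tested.

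BA tumours at the endpoint were compared with WT PC. Both parts of the oxidase were higher than in WT PC, Duoxa2 7.31-fold and Duox2 5.06-fold, while the lectins spread widely and were not called. WT PC held less of both than WT colon at day 30, with mean Duox2 at 79.3 against 272 CPM and Duoxa2 at 8.95 against 47.6 CPM. In BA tissue mean Duox2 was 394 CPM in tumours and 319 CPM at day 30, and mean Duoxa2 62.3 and 71.2 CPM. A rise from day-30 tissue to tumour was therefore not shown. Of 9 genes tested 2 were called, both higher, beside 13.2% of all genes tested and 7.46% higher. The median log2 fold change of the 9 was 2.34 and that of all genes 0.03.

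Duox2 was at 368, 339, 396 and 475 CPM in the 4 tumours and at 79.4, 74.9 and 83.7 CPM in the 3 WT colons. All tumours lay above all WT samples, as for 12.4% of genes tested, and the log2 fold change was 2.34 ± 0.25 (adjusted p = 0.00144). Duoxa2 was at 38.9, 74.0, 69.0 and 67.2 CPM against 8.73, 12.0 and 6.07 CPM (log2 2.87 ± 0.41, adjusted p = 0.00384). Both calls held in all 7 fits with 1 library left out, and Duox1 (1.71 ± 0.49, adjusted p = 0.0495) and Duoxa1 (2.92 ± 0.48, adjusted p = 0.00670) rose as well.

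Reg3b was at 608, 3388, 2246 and 98.7 CPM in tumours and at 543, 3.60 and 102 CPM in WT PC. Its log2 fold change of 3.14 ± 1.56 was not called (adjusted p = 0.226), nor was that of Reg3g (3.83 ± 1.47, adjusted p = 0.123). The highest tumour in both, tumour 2, was also the one with the most Paneth cell markers (364 CPM), whose part was not tested, and without it the values were 2.20 and 2.26, uncalled. Saa3 was at 12.0, 112, 19.9 and 14.1 CPM in tumours against 5.74, 14.7 and 6.86 CPM (log2 2.34 ± 0.96, adjusted p = 0.145), and 0.65 without tumour 2. Nos2 was at 3.61, 24.9, 7.35 and 7.80 CPM against 1.03, 1.96 and 4.31 CPM (log2 2.34 ± 0.83, adjusted p = 0.0996). Tumour 2 was the highest for all 4 of these genes, and without it Nos2 was at 1.28 (adjusted p = 0.150). With no filter on low counts, 6 genes were called higher in place of 2. Retnlb (-0.67 ± 1.11, from 6.42 to 251 CPM in WT PC), Saa1 (-0.06 ± 0.78) and Reg3a (-1.28 ± 1.27) were not called, and Saa2, at most 0.458 CPM, was too low to be tested. Of the neutrophil markers tested in BA tumours, 7 of 7 were higher. In BA colon at day 30 only 2 of the 8 markers were high enough to be tested, and of these Ly6g alone was higher (10.77 ± 0.26). The neutrophil markers as a set were therefore not tested at day 30.

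Whether the BA effect differed between tumour and day 30 was tested with an interaction term. The effect in tumours minus that at day 30 was called, and positive, for 3 of 10 genes (16.3% of all genes tested were called, 9.87% higher). These were Reg3g (8.01 ± 2.63 on the log2 scale, adjusted p = 0.0482), Saa3 (4.74 ± 1.09, adjusted p = 0.00774) and Duox2 (1.94 ± 0.61, adjusted p = 0.0396). For Reg3g and Saa3 the effects had opposite signs, with uncalled rises in tumours and called falls at day 30. Duox2 was called higher in tumours and was not called at day 30. Saa3 held in all 16 fits with 1 library left out. Reg3g and Duox2 held in 5 of 16 each, and the Reg3g difference fell to 2.43 (adjusted p = 0.407) without WT day-30 mouse 1. The fits draw on different WT groups, whose Reg3b levels at day 30 rest on 1 mouse. Saa3 was at 5.74 to 14.7 CPM in WT PC and 28.0 to 57.4 CPM in WT at day 30. In BA tissue it was at 12.0 to 112 CPM in tumours and 1.38 to 12.7 CPM at day 30. Mean Duox2 was 79.3 CPM in WT PC and 272 CPM in WT at day 30. It was 394 CPM in BA tumours and 319 CPM in BA colon at day 30. The Saa3 and Duox2 differences therefore include a difference between WT groups, whose share was not tested.

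**Figure D4:**
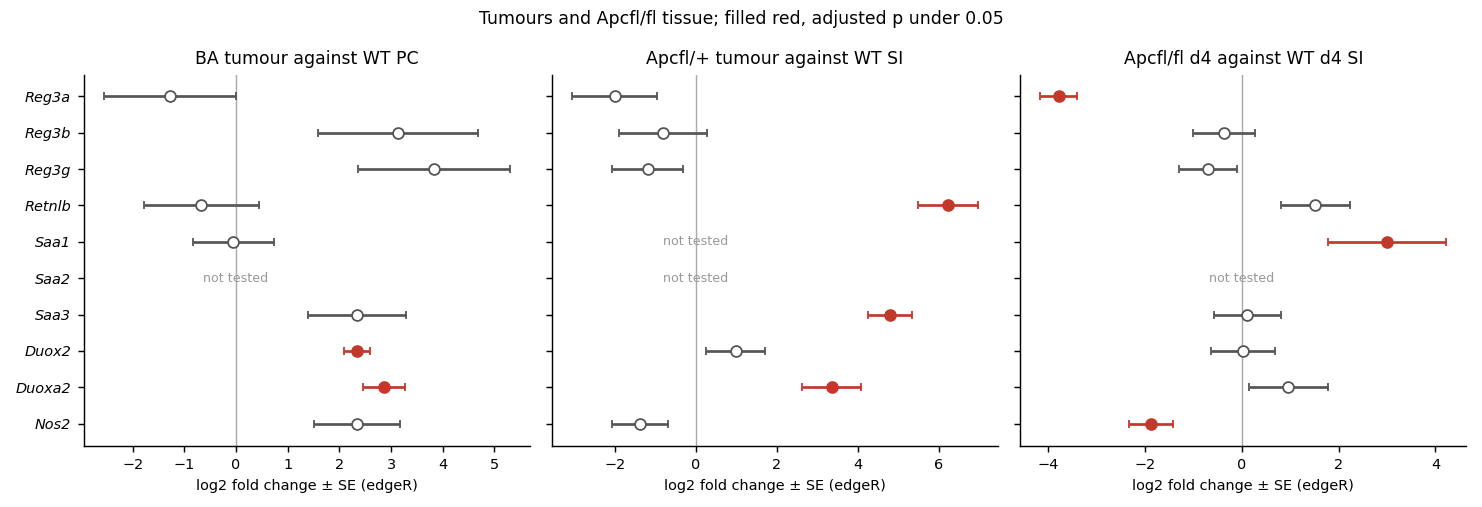
Log2 fold change of each gene with its standard error in BA tumours, Apcfl/+ tumours and Apcfl/fl tissue at day 4, each against its own WT group, with filled red points for an adjusted p under 0.05. Duoxa2 was higher in both tumour types (2.87 and 3.35), Duox2 in BA tumours, Retnlb and Saa3 in Apcfl/+ tumours, and Reg3a was lower in Apcfl/fl tissue (-3.79).

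In Apcfl/+ tumours of the small intestine, 3 genes that were low in WT SI were higher. They were Retnlb, Saa3 and Duoxa2, 3 of 8 genes tested, where 61.5% of all genes tested were called and 31.4% were higher. The median log2 fold change of the 8 was 0.08, beside 0.03 over all genes. Retnlb was at 9.69, 6.32, 4.97, 17.1 and 9.38 CPM in tumours and at 0.200, 0.161 and 0 CPM in WT SI (log2 6.22 ± 0.74, adjusted p = 0.000200). Saa3 was at 53.9, 47.8, 23.6, 45.9 and 102 CPM against 2.79, 1.87 and 1.20 CPM, 27.6-fold higher (log2 4.79 ± 0.55, adjusted p = 0.000171). Duoxa2 was at 61.7, 30.6, 18.5, 44.6 and 68.0 CPM against 0.998, 8.62 and 3.54 CPM (log2 3.35 ± 0.72, adjusted p = 0.00376). Every tumour lay above every WT SI sample in all 3 genes, as in 31.5% of genes tested, and all 3 calls held in the 8 fits with 1 library left out. WT Retnlb levels are near the limit of counting, so its fold is an estimate that depends on the fit.

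Reg3b was at 1339, 60.4, 803, 3264 and 1665 CPM in these tumours and at 677, 6192 and 689 CPM in WT SI (log2 -0.81 ± 1.08, adjusted p = 0.533), and Reg3g had a value of -1.20 ± 0.87 (adjusted p = 0.256). Reg3a was at 28.5, 0.381, 85.2, 14.5 and 9.24 CPM against 183, 64.6 and 93.8 CPM and was not called (-2.01 ± 1.05, adjusted p = 0.125), except without tumour 3 (-3.08, adjusted p = 0.0266). The lowest Reg3a and Reg3b of the group were those of tumour 2, the library with few small intestinal and more colonic markers, which also held 129 CPM of Saa1 against 0.144 to 0.414 CPM in the other 4. Saa1 and Saa2 were not tested here. Without that tumour, tumour 5 and WT SI mouse 1, Nos2 was called lower (-2.86, adjusted p = 0.000760), against -1.38 ± 0.68 (adjusted p = 0.105) with all libraries. Without tumour 2 alone it was also called (-1.84, adjusted p = 0.0258). Duox2 was not called (0.98 ± 0.73) unless WT SI mouse 2 was left out (2.37, adjusted p = 0.0189).

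The tumour effects of the 2 models differed for 3 of 9 genes (39.7% of all genes tested), each effect taken against its own WT tissue. The effect on Retnlb was lower in BA than in Apcfl/+ tumours (log2 difference -6.88 ± 1.81, adjusted p = 0.00924), and this held in all 15 fits with 1 library left out. Its WT levels were 0 to 0.200 CPM in WT SI, near the limit of counting, and 6.42 to 251 CPM in WT PC. The mean level itself was higher in BA tumours (54.9 CPM) than in Apcfl/+ tumours (9.49 CPM). Reg3g (5.02 ± 1.78, adjusted p = 0.0365) and Nos2 (3.73 ± 1.16, adjusted p = 0.0208) had higher effects in BA, in 8 and 13 of 15 such fits, Reg3g at 3.38 (adjusted p = 0.0964) without BA tumour 2. The share called was 21.9% with a higher and 17.7% with a lower effect in BA. Limma voom called 1 gene. Duoxa2, which rose in both tumours, showed no called difference (-0.46 ± 0.79, adjusted p = 0.659). The models also differ in organ and background, which cannot be told apart from genotype here.

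Acute loss of both Apc alleles was measured 4 days after induction. Of 9 genes tested 3 were called, 2 lower and 1 higher, where 54.2% of all genes tested were called, 26.7% lower and 27.5% higher. Their median log2 fold change was 0.02, beside 0.00 over all genes, which library totals alone moved to 0.27. Reg3a, at 103 to 219 CPM in the 6 WT mice (median 147), was at 6.56 to 27.0 CPM in the 10 Apcfl/fl mice (median 11.9). It was 13.8-fold lower without overlap (log2 -3.79 ± 0.37, adjusted p = 9.35e-07), and 5.26% of all genes tested were lower without overlap.

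Nos2 was at 5.28 to 27.2 CPM in WT (median 15.2) and at 0 to 15.5 CPM in Apcfl/fl mice (median 3.54), 3.68-fold lower with overlap (log2 -1.88 ± 0.46, adjusted p = 0.00248). Both of these calls held in all 16 fits with 1 library left out. Saa1 was called higher (3.00 ± 1.22, adjusted p = 0.0466), with 0 reads in 4 of 10 Apcfl/fl mice and up to 32.6 CPM, and the call held in 7 of 16 fits and was lost without the libraries that stand apart (2.67, adjusted p = 0.158). Reg3b ran from 343 to 10567 CPM in Apcfl/fl mice and from 783 to 8748 CPM in WT, and neither it (-0.37 ± 0.64, adjusted p = 0.650) nor Reg3g (-0.70 ± 0.60, adjusted p = 0.336) was called. Duox2, Duoxa2, Retnlb and Saa3 were not called, apart from Retnlb without Apcfl/fl mouse 7 (1.68) or WT mouse 3 (1.97), and Saa2 was too low to be tested. Paneth cell markers summed to 3219 to 10555 CPM in Apcfl/fl and 2395 to 9586 CPM in WT mice, and small intestinal epithelial markers to 4640.0 to 13894 CPM against 19028 to 29677 CPM. Their part in the Reg3a level was not tested.

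Genes that act before or beside the 10 were read from 4 lists drawn up with earlier results of these data known. Under antibiotics against BA, where 13.0% of all genes tested were called and 8.50% were lower, 3 of 15 cytokine and receptor genes tested were lower and 0 higher, namely Il13ra1 (-0.66 ± 0.07), a receptor chain of IL-13, Il22ra1 (-0.41 ± 0.09) and Il10rb (-0.28 ± 0.04), which together form the IL-22 receptor. Of 26 genes of microbe sensing 2 were lower, among them Nfkbiz (-0.72 ± 0.09), and 2 were higher, so the calls in this list went equally in both directions. Of 16 other epithelial defence genes 6 were lower and 0 higher, with a median of -0.36 against 0.03 over all genes. They were Ido1 (-1.79 ± 0.18), which breaks down tryptophan, Pla2g2a (-1.74 ± 0.30), a bactericidal phospholipase, Lypd8 (-1.30 ± 0.16), which holds flagellated bacteria off the colonic surface, Fut2 (-1.16 ± 0.19), which fucosylates the epithelial surface, and the NADPH oxidase subunits Cyba (-0.75 ± 0.20) and Noxa1 (-0.42 ± 0.11). Of the cytokines themselves, Il22 lay at or below 0.0612 CPM and Il17a at 0 in all BA colon libraries at day 30.

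In untreated BA colon against WT, microbe sensing genes were 13 higher and 7 lower of 26, where 55.1% of all genes tested were called and 29.3% were lower. Tlr4 (1.76 ± 0.18), the endotoxin receptor, and Cd14 (1.43 ± 0.38), its partner, rose, while Tlr2 (-2.84 ± 0.18) and the flagellin receptor Tlr5 (-2.38 ± 0.20) fell. Of 18 other defence genes 9 were lower and 4 higher. Mptx1 (-9.24 ± 1.30), a mucosal pentraxin, the lectin Itln1 (-6.33 ± 1.17), the goblet and Paneth cell ribonuclease Ang4 (-3.88 ± 0.86), the cytokine Il18 (-3.24 ± 0.23) and the IgA transporter Pigr (-2.02 ± 0.23) fell, and Pla2g2a rose (4.00 ± 0.36). Of 16 cytokine and receptor genes 7 were higher, among them Il1b (1.69 ± 0.30) and Il22ra1 (1.02 ± 0.15), and 5 lower.

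In BA tumours, where 13.2% of all genes tested were called and 7.46% were higher, 8 of 18 cytokine and receptor genes were higher and 1 lower, led by Il6 (5.77 ± 1.37), Osm (4.82 ± 1.16), Il1a (3.80 ± 0.70), Il1b (3.46 ± 0.35) and Tnf (3.40 ± 0.60). Socs3 (3.56 ± 0.73), the feedback inhibitor of IL-6 family signals, led the 7 of 26 sensing genes that rose. In Apcfl/+ tumours 9 of 21 cytokine and receptor genes were higher and 3 lower, where 61.5% of all genes tested were called and 31.4% were higher. Lcn2 (6.15 ± 0.60), which withholds iron from bacteria, Wfdc2 (5.58 ± 0.77) and Fut2 (5.05 ± 0.37) led the 8 of 18 other defence genes that rose, and 5 fell.

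Genes whose level over all 53 libraries was most like that of a defence gene were ranked by Pearson correlation of log2 CPM, as a description that includes differences of organ. Reg3g was most like Slc5a9 (r = 0.90), Mmp7 (0.87) and Slc28a3 (0.86), and Retnlb was most like Pparg (0.93), Paqr5 (0.93) and Ildr1 (0.92). Saa3 was most like Rac3 (0.76), Tlr2 (0.76) and Fggy (0.74). Duox2 was most like Hk2 (0.80), Tat (0.79) and Fut2 (0.78), and Nos2 most like Nfam1 (0.72), Hk3 (0.72) and Il7r (0.70). Fut2 and Tlr2 were also among the genes listed above, where Fut2 fell with Duox2 under antibiotics and Tlr2 fell with Saa3 in BA colon.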

How the data were processed

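Whole-tissue RNA had been sequenced as paired 36-base reads from a TruSeq kit that does not mark strand. The authors deposited 1 table of raw gene counts, and the submitters' processing notes and the study's methods name FastQC 0.11.8, Trim Galore 0.6.4, HISAT2 2.1.0, featureCounts 1.6.4 and GRCm38. The strand setting and the handling of reads with several matches are not given in the sources used here. The table held 55421 identifiers, of which 55154 had a symbol, and 0 columns of other samples. Samples were grouped from their labels, and all replicates differed beyond sampling noise.

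Counts were tested with the edgeR quasi-likelihood test (edgeR 4.0.16, limma 3.58.1, R 4.3.3) after the default low-count filter and TMM scaling, within the groups compared, with Benjamini-Hochberg adjustment over all genes tested and a threshold of 0.05. Each comparison and interaction was fitted over all genes, and scripts were tested on simulated data. Alternatives were RLE size factors, library totals, no filter, DESeq2 1.42.0, limma voom, a replicate block, a joint fit of the 5 day-30 groups, Saa1 with Saa2 and Reg3b with Reg3g summed, and each library left out. Levels are CPM of the library total, or RPKM over exon length. Correlations used log2 CPM with a prior count of 2. Standard errors are those of the log2 fold change, and floors of 3 counts cover counting error only. Tables were joined and summarised with Python 3.11.15 and pandas 2.3.3.

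The 10 genes were named throughout. Any gene of the related lists and markers could be named, those called with the largest change first, genes most alike were the 3 highest correlations for 5 of the 10, and the members and lists were chosen with earlier results of these data known.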

Additional observations from a re-analysis of the deposited data

Results flagged for a closer look

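Of 89 groups searched for a sample far from the rest of its group, 10 held one, and chance gives about 1 in 20 groups. Among day-30 libraries these were Retnlb in A mouse 3 (191 CPM), Saa3 in BA antibiotics mouse 3 (13.9 CPM) and Nos2 in A sulindac mouse 2 (28.4 CPM). Among tumours they were Saa1 in Apcfl/+ tumour 2 (129 CPM) and Duoxa2 in BA tumour 1 (38.9 CPM, the lowest). At day 4 they were Saa2 in Apcfl/fl mouse 7 (12.0 CPM), Duox2 in Apcfl/fl mouse 5 (381 CPM), Nos2 in Apcfl/fl mouse 1 (0 CPM, the library with the lowest total), and Saa2 (1.53 CPM) and Saa3 (24.7 CPM) in WT mouse 3.

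Effects that differed between settings by an interaction test were, on the log2 scale, Reg3g (5.02), Retnlb (-6.88) and Nos2 (3.73) between BA and Apcfl/+ tumours, and Reg3g (8.01), Saa3 (4.74) and Duox2 (1.94) between BA tumours and BA colon at day 30. Each effect was taken against its own WT group, and WT PC and WT colon at day 30 differed in their Saa3 and Duox2 levels.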

How the results depend on the processing

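Of 1961 values recomputed for the 10 genes, 1733 kept their direction and side of the threshold. With the direction kept, 82 lost and 46 gained a call. A further 98 changed direction with no call in either fit, and 2 reversed, a change of direction with a call in at least 1 fit. Without a low-count filter, 6 genes were called in BA tumours and 5 in the test of the BA effect between tumour and day 30, where DESeq2 also called 5. DESeq2 called 3 in BA colon against WT. With Saa1 and Saa2 summed, and Reg3b and Reg3g summed, 88 values kept direction and side of the threshold. In that setting 2 values lost a call and 1 changed direction without a call. Limma voom called 1 under antibiotics against BA and 1 between the tumour models, and a joint fit of the 5 day-30 groups called 1 under antibiotics against BA. When 1 library at a time was omitted, the number of called genes ran from 2 to 5 in BA colon against WT, 1 to 3 under antibiotics against BA, and 1 to 4 in both tests between effects. In those fits the Reg3b value in BA colon against WT ran from -6.17 to 2.39 and that of Reg3g from -4.74 to 1.44, both reversed without WT mouse 1. The cause of these differences was not tested.

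In no comparison did every same-numbered pair of samples deviate together with r over 0.1 (r from -0.53 to 0.41 over all pairs), so the numbers were not taken as pairing, although all pairs were positive in BA against WT colon (0.054 to 0.212) and in Apcfl/+ tumours (0.00062 to 0.149). In A against WT colon, 3 of 4 pairs were over 0.1, and 3 A mice were most like the WT mouse of their own number. With a block there, 2336 genes had an unadjusted p under 0.05 by the edgeR quasi-likelihood test, against 1717 without. With the replicate number as a block, 4 genes were called under antibiotics against WT, 1 under antibiotics against BA and 9 in BA against A colon (2 higher, 7 lower). The tests between effects were not fitted with a block. Leaving out the libraries that stand apart, an alternative chosen after seeing the data, gave 2 calls under antibiotics against BA and 7 against WT. The 2 calls against BA were then Duoxa2 and Saa3, and Duox2 was no longer called. Depth limits Reg3a and Saa2, which lay near 3 counts in several groups.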
